A study of Homo sapiens with 4 samples.

Results

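The genes described here are the 200 most abundant of the 474 human genes whose name is ZNF followed by a number alone, chosen by their counts summed over the 4 libraries of the study. The last gene inside that rank was ZNF77 with 1746 counts, after ZNF701 with 1765 and ZNF382 with 1748. The first ones outside it were ZNF718 with 1738, ZNF746 with 1735 and ZNF646 with 1734. The choice used every library's counts, so a gene that was silent in 1 library could enter only by being high in another, and the levels below are a description.

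Single-cell RNA was sequenced from the 5′ ends of transcripts in H1299, from a human lung carcinoma of the non-small cell type, and in HCT116, from a human colorectal carcinoma. Cells of either line received DMSO, the solvent, or decitabine (DAC, an inhibitor of DNA methyltransferases, 500 nM for 72 h) plus SB939 (an inhibitor of histone deacetylases, 500 nM for 18 h), written DAC+SB here. All cultures were at passage 5 to 10 and had their medium renewed every 24 h. Every combination of line and treatment was 1 library, so no difference within a line has a replicate check or a test, and intervals (95%) cover counting error only.

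Zinc finger proteins of the ZNF series bind DNA, and some bind RNA, through repeated C2H2 fingers, short loops that hold a zinc ion. Many begin with a KRAB domain, which recruits the co-repressor TRIM28 and, through it, the histone methyltransferase SETDB1 and heterochromatin proteins. KRAB zinc finger genes lie in clusters, above all on chromosome 19, and many of their proteins bind transposable elements. DNA methylation of ZNF promoters is common in tumours. Other ZNF genes have no KRAB domain and act in general transcription, splicing, mitosis or ribosome assembly.

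All 200 genes were placed on GRCh38 with GENCODE v29, 198 by their symbol and 2 (ZNF542 and ZNF788, annotated as pseudogenes) by an older symbol. A KRAB pattern was found in 108 of the 198 with a protein, meaning that at least 14 of 20 conserved positions of the KRAB A-box matched in the translated longest coding sequence. The fingers found per protein ranged up to 33, with a median of 9.5. Chromosome 19 held 89 of the 200 genes.

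The promoters of 5 genes are shown to set genes silent in untreated HCT116 beside an expressed neighbour. ZNF701, ZNF677, ZNF567 and ZNF10 had 0 counts in untreated HCT116 cells and counts after DAC+SB, whereas ZNF146, which lies in the same chromosome 19 cluster as ZNF567, was expressed in all 4 libraries. Each sequence is RefSeq's 300 bases on GRCh38.p14, from 250 before to 50 after the start listed there, 5′ to 3′ on the gene's strand, with each CG pair, the site of DNA methylation, in capitals. Where RefSeq lists 2 starts for a gene the 5′-most is shown, and for ZNF567 and ZNF701 it lies far from the start of the GENCODE v29 gene. The start used in these cells was not determined.
ZNF701 (chr19:52570037-52570336, + strand, 26 CG pairs): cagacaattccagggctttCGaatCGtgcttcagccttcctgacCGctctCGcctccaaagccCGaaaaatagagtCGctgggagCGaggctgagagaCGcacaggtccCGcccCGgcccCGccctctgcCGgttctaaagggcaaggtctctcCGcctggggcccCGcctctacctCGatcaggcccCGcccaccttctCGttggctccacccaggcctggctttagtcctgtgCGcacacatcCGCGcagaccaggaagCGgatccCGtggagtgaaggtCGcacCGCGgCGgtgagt
ZNF677 (chr19:53254824-53255123, - strand, 30 CG pairs): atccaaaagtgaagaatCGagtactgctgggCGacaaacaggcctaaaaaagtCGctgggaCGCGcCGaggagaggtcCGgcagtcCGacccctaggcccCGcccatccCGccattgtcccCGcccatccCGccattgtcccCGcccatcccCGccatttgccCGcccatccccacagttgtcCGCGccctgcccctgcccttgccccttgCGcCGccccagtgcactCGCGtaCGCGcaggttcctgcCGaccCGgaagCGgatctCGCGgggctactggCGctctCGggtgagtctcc
ZNF567 (chr19:36666684-36666983, + strand, 18 CG pairs): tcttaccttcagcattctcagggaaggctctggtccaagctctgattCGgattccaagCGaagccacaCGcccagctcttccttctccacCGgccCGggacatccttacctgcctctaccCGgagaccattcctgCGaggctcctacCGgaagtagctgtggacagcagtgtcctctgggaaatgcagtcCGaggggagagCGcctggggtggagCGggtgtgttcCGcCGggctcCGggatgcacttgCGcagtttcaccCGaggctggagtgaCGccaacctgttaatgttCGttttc
ZNF10 (chr12:133130377-133130676, + strand, 46 CG pairs): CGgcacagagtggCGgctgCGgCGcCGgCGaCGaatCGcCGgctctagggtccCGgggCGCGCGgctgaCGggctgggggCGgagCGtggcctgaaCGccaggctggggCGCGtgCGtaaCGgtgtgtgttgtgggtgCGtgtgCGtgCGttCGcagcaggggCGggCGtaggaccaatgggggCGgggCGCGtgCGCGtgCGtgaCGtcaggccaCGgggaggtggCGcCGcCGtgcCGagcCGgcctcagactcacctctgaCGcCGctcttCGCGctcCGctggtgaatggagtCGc
ZNF146 (chr19:36214856-36215155, + strand, 24 CG pairs): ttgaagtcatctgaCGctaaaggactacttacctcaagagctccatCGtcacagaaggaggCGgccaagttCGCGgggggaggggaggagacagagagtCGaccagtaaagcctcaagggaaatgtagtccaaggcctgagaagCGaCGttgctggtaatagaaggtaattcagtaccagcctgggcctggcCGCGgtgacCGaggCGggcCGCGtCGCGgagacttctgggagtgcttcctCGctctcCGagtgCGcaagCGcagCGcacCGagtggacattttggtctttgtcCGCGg

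RefSeq's table held a promoter for 176 of the 200 genes. Their median was 23.5 CG pairs in 300 bases, against 13 over all 27305 promoters of that length. The 22 promoters of genes with 0 counts in untreated HCT116 cells had a median of 20.5 CG pairs (9 to 46), and the 146 promoters of genes with 20 or more counts there had a median of 24 (6 to 55), so the ranges of silent and expressed genes overlapped. Motifs were searched on both strands. The ETS motif CCGGAAG was in 40.3% of the promoters of these genes, against 10.6% of all promoters. The SP1 motif GGGCGG was in 69.3% against 44.5% of all promoters, and the NF-Y motif CCAAT in 42.6% against 35.7%. The CREB motif TGACGTCA was in 6.82% against 1.97%, the ZNF143 motif ACTACAA in 6.82% against 2.94%, the NRF1 motif GCATGCGC in 6.25% against 3.29%, and the YY1 motif AAGATGGC in 6.82% against 3.01%. None of these motifs contains another, although sites of different motifs may overlap. The promoters compared were not matched for CG pairs, and several motifs contain CG, so the part of CG content in these shares was not tested. A match is a description of the letters and not a bound site.

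The libraries held between 38927267 counts (HCT116 DAC+SB) and 64524196 (H1299 DMSO), over 3578 to 4327 cells. The median per cell was 15784.5 to 17369.5 counts in 3 libraries and 8449 in HCT116 DAC+SB, the shallowest. Mitochondrial genes took 9.35% to 9.50% of counts in H1299 and 17.4% to 18.2% in HCT116. Levels are given on the counts-per-million scale (CPM), where the total is that of the library's gene and transposable element counts. Since counts come from 5′ ends they are not divided by gene length, and levels were compared between libraries, not between genes. As a check of the lines, CDX2, an intestinal transcription factor, had 1 and 18 counts in H1299 and 875 and 249 in HCT116, DMSO first and DAC+SB after it, which is the order of values throughout. EPCAM, an epithelial adhesion molecule, had 1, 279, 5054 and 1759 counts. A list of 5 H1299 genes (VIM, CDH2, FN1, AXL, ZEB1) summed to 2536, 1229, 87.4 and 293 CPM, and 6 HCT116 genes (EPCAM, CDH1, KRT8, KRT18, CDX2, LGALS4) to 352, 990, 517 and 610 CPM. The HCT116 list did not separate the lines, since the keratin genes KRT8 and KRT18 were high in both.

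The 200 genes together made up 4585 CPM with DMSO and 5071 CPM with DAC+SB in H1299, and 3167 and 3370 CPM in HCT116. They held 80.9%, 81.5%, 85.3% and 79.1% of the counts of all 474 ZNF genes. Their summed level was 1.11-fold higher with DAC+SB in H1299 and 1.06-fold higher in HCT116. When only features without a number after the gene name were counted, the HCT116 sum turned to 0.907-fold. In cells thinned to 3300 counts each, the median cell held 15, 16, 10 and 11 counts of these genes, or 0.455%, 0.485%, 0.303% and 0.333% of its counts. The sum was thus higher in H1299 than in HCT116 under either treatment, and it differed far less between treatments than many single genes did.

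None of the 10 genes with the most counts had a KRAB pattern, ZNF542 having no protein to search, and all but ZNF542 were well expressed in every library. ZNF706, which codes for a protein of 76 residues reported to act in the exit from pluripotency, had 469, 305, 250 and 157 CPM. It was lower with DAC+SB in both lines, with log2 ratios of -0.62 (interval -0.64 to -0.59) and -0.67 (-0.71 to -0.63), short of a 2-fold difference. With features without a number alone, ZNF706 had 15475 and 7066 counts in H1299 and passed 2-fold there (log2 ratio -1.08). ZNF593, a nucleolar factor of ribosome assembly, was higher with DAC+SB in both lines at 110, 134, 100 and 152 CPM. ZNF207, which brings the checkpoint protein BUB3 to kinetochores, had 58.0, 39.3, 61.9 and 44.5 CPM. ZNF638, which silences unintegrated retroviral DNA with the HUSH complex, had 76.6, 50.2, 65.2 and 52.3 CPM. ZNF292, which is altered in neurodevelopmental disorders, had 86.6, 47.1, 63.6 and 36.8 CPM and log2 ratios of -0.88 and -0.79. ZNF706, ZNF207, ZNF638 and ZNF292 were thus lower with DAC+SB in both lines, by less than 2-fold apart from that setting for ZNF706, and ZNF593 was higher. ZNF106, an RNA-binding protein of motor neurons and muscle, had 91.3, 79.8, 57.6 and 43.3 CPM. ZNF428 had 103, 96.7, 146 and 92.3 CPM, and ZNF664 66.5, 63.0, 55.4 and 28.8 CPM. Both had log2 ratios close to 0 in H1299 (-0.09 and -0.08) and below 0 in HCT116 (-0.66 and -0.94). ZNF146, a finger protein with no other known domain, had 67.7, 68.2, 74.6 and 33.6 CPM. Among these 10 genes it was the one at least 2-fold lower in a line under the main settings (log2 ratio -1.15 in HCT116, -1.24 to -1.06). Over the alternatives ZNF664 ranged from -1.02 to -0.52 in HCT116, the latter with joined names added.

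**Figure D1:**
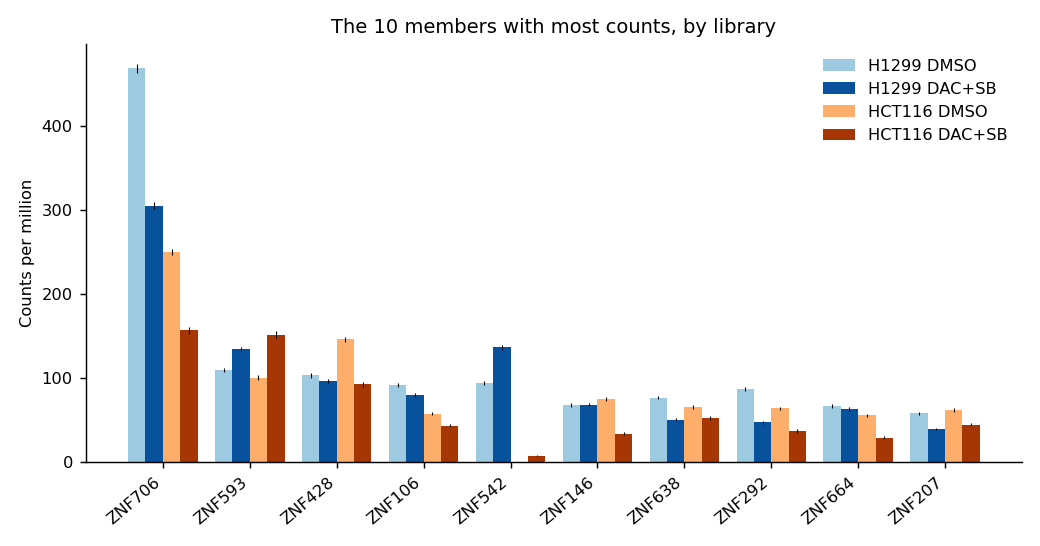
CPM (vertical axis) of the 10 ZNF genes with the most counts, with a bar for each of the 4 libraries and error bars for 95% Poisson intervals, which cover counting error only. ZNF542 has bars of 93.7 and 137 CPM in H1299, none in HCT116 DMSO, and 7.50 CPM in HCT116 DAC+SB.

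Of the genes whose level differed between the untreated lines, most were higher in H1299. A gene was counted here when the level under DMSO differed by at least 4-fold and the higher library held at least 100 counts. Of the 200 genes, 45 were that much higher in H1299 and 3 were that much higher in HCT116. Over all 13796 genes with enough counts, 9.92% were higher in H1299 and 8.11% in HCT116. The 3 genes higher in HCT116 were ZNF503 (NOLZ1), a developmental repressor, its relative ZNF703, linked to luminal breast cancer, and ZNF22, linked to tooth development. With DMSO, ZNF503 had 11 counts in H1299 and 1797 in HCT116, ZNF22 had 201 and 1496, and ZNF703 had 109 and 738. ZNF629 (7.05 and 21.6 CPM) and ZNF195 (8.28 and 24.8 CPM) came next in that direction and were below 4-fold. In the other direction, 32 of the 45 genes had under 20 counts in HCT116 DMSO, and 13 had 20 or more. The ratios of those with 0 or 1 counts there cannot be ranked. Among them were ZNF542, ZNF850, ZNF568, ZNF880 and ZNF793, with between 951 and 6049 counts in H1299 DMSO.

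In the HCT116 DMSO library 24 of the 200 genes (12%) had 0 counts, at a library total of 62639099, and 8 more had 1 to 11 counts. Of all 9361 genes with a 4-library sum of at least 1746 counts, 143 or 1.53% were at 0 in that library, and the 24 ZNF genes were part of these 143. In H1299 DMSO 42 of those genes (0.449%) were at 0, and no gene of the 200 was at 0 in any library other than HCT116 DMSO. Of the 274 ZNF genes outside the 200, 81 were at 0 in HCT116 DMSO, against 24 in H1299 DMSO, 3 in H1299 DAC+SB and 1 in HCT116 DAC+SB. Of all 40877 genes, 12991, 12923, 6053 and 6636 were at 0 in these libraries, in the same order. The 81 of 274 are thus near the share of all genes in HCT116 DMSO. In each of the other libraries the share of these ZNF genes at 0 was below that of all genes. The genes compared were not matched for abundance. The 24 were ZNF542, ZNF260, ZNF420, ZNF529, ZNF677, ZNF345, ZNF829, ZNF10, ZNF567, ZNF569, ZNF83, ZNF43, ZNF429, ZNF891, ZNF570, ZNF790, ZNF266, ZNF140, ZNF788, ZNF528, ZNF331, ZNF141, ZNF701 and ZNF382. Chromosome 19 held 20 of them, and 19 of the 22 that code for a protein had the KRAB pattern.

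With DAC+SB all 24 had counts in HCT116, although that library was the shallowest. All but ZNF382 of the 24 had at least 20 counts there. So had 129 of the 143 genes of any kind that were at 0 with DMSO, so such a gain was not particular to ZNF genes. Counts of the 24 ran from 12 (ZNF382) to 388 (ZNF10) with a median of 177, or 0.308 to 9.97 CPM with a median of 4.55 CPM. Features with a number after the gene name were listed only from about 10 counts, so a summed 0 may hide counts of such a feature, and bounds were taken from features without a number, which were listed down to 1 count in that library. Over those the 24 genes were at 0 with DMSO and had at least 12 counts with DAC+SB, with a median of 97. Set against a floor of 3 counts in the HCT116 DMSO library, the 24 genes were 6.44-fold (ZNF382) to 132-fold (ZNF331) higher over those features. For the genes at 0, a fold given below as "at least" is this value. It leaves out counting error and any unlisted count of a numbered feature. The level reached was a part of that in untreated H1299 cells, from 3.65% for ZNF382 to 90.7% for ZNF10, with a median of 18.4%. None of the 24 went above it. These genes entered the rank mainly through their H1299 counts, so high H1299 levels were part of the choice and these shares are a description.

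ZNF10 (chr12:133130575-133159465), also called KOX1 and the source of the KRAB domain used in CRISPR interference, had 709, 3008, 0 and 388 counts, or 11, 48.2, 0 and 9.97 CPM. It was at least 73.5-fold higher with DAC+SB in HCT116, and 4.39-fold higher in H1299 (log2 ratio 2.13, 2.01 to 2.25). ZNF677 (chr19:53235381-53254898), known to be methylated in lung tumours, had 2036, 2259, 0 and 377 counts. It was at least 106-fold higher in HCT116, while its H1299 log2 ratio was 0.20 (0.11 to 0.28). ZNF701 (chr19:52555457-52587174) had 772, 647, 0 and 346 counts, at least 72.9-fold higher in HCT116, with a log2 ratio of -0.21 (-0.36 to -0.05) in H1299. ZNF677 and ZNF701 were thus already expressed in untreated H1299 cells and moved little there. ZNF266 (1057, 1074, 0 and 338 counts) had the same pattern, at least 123-fold higher in HCT116. ZNF567 (chr19:36687612-36727701), with 1103, 2444, 0 and 314 counts, was at least 84.7-fold higher in HCT116 and 2.29-fold higher in H1299.

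A single count in HCT116 DMSO was found for 5 genes, which makes their ratios imprecise, and they were not ranked against the genes at 0. ZNF793 and ZNF85 had 47 and 57 counts with DAC+SB, under the minimum of 100, and the other 3 passed it. ZNF850 had 1414, 1765, 1 and 242 counts, a log2 ratio of 8.61 (6.11 to 13.91). ZNF568, whose mouse relative represses placental Igf2 transcripts, had 1093, 4783, 1 and 193 counts, a log2 ratio of 8.28 (5.78 to 13.59). ZNF880 had 1059, 1034, 1 and 192 counts, a log2 ratio of 8.27 (5.78 to 13.58). With features without a number alone, the log2 ratio was 7.75 for ZNF850 and ZNF568 and 5.54 for ZNF880. Among these 3, ZNF568 also had more than 4 times the level in treated H1299 (76.6 against 16.9 CPM), and ZNF850 and ZNF880 did not (28.3 against 21.9 and 16.6 against 16.4 CPM).

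**Figure D2:**
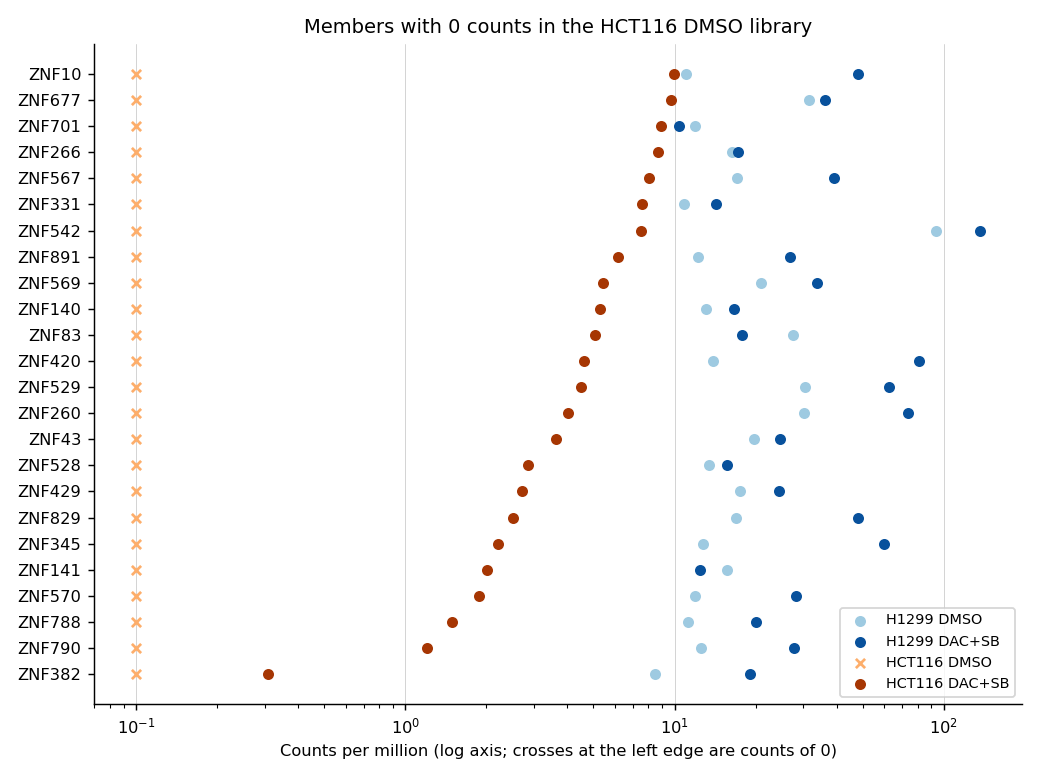
CPM (horizontal log axis) of the 24 genes with 0 counts in HCT116 DMSO, with a point for each library and crosses at the left edge for counts of 0. Every gene has a point for HCT116 DAC+SB, from 0.308 CPM for ZNF382 to 9.97 CPM for ZNF10, and each of these lies left of the gene's point for H1299 DMSO.

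Of the 5 genes that mark H1299, 3 were higher in HCT116 with DAC+SB, and their part in these values was not tested. There VIM had 2947 counts without treatment and 10321 with it, CDH2 had 0 and 156, and FN1 had 183 and 302. ZEB1 differed little at 15.2 and 14.1 CPM. AXL was lower at 22.2 and 2.16 CPM, and had 204 and 21.3 CPM in H1299. Across the 4 libraries 131 barcode sequences were found in 2 libraries each, which concerns 262 of 15289 cells. Of the 4526 counts of the 24 genes in HCT116 DAC+SB, 72 lay in such cells.

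The counts of these 24 genes were spread over many HCT116 cells. A count of at least 1 of them was present in 2328 of 4327 cells with DAC+SB (53.8%, exact interval 52.3% to 55.3%) and in 0 of 3658 cells with DMSO. In H1299 it was present in 98.6% of cells with DMSO and 98.8% with DAC+SB. After thinning to 3300 counts per cell, which left out 402 shallower cells of HCT116 DAC+SB and none elsewhere, the shares were 74.5% and 88.3% in H1299, 0% in HCT116 DMSO, as the choice of these genes fixes, and 29.2% in HCT116 DAC+SB. In HCT116 DAC+SB, 1016 cells (23.5%) had counts of at least 2 of the 24 genes, up to 8 genes in a cell. The highest sum in a cell was 13 counts, and the tenth of cells with most counts of these genes held 39.4% of them. ZNF10 had a count in 7.60% of HCT116 cells with DAC+SB (329 of 4327), ZNF701 in 7.05% (305), and ZNF420 in 3.63% (157). The 0 in untreated HCT116 cells follows from how the 24 were picked and is no measure of background, and free RNA in the DAC+SB library was not estimated. Its median depth was 8449 counts per cell, against 16257.5 in HCT116 DMSO.

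**Figure D3:**
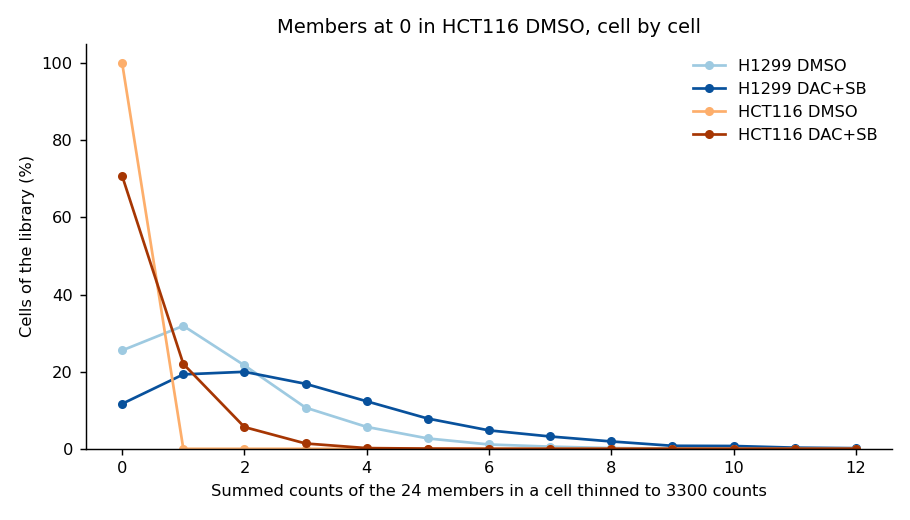
Share of each library's cells in percent (vertical axis) by the summed counts of the 24 genes in a cell thinned to 3300 counts (horizontal axis), with a line for each library. HCT116 DMSO lies wholly at 0 counts, whereas 29.2% of HCT116 DAC+SB cells, 74.5% of H1299 DMSO cells and 88.3% of H1299 DAC+SB cells have 1 or more.

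Responses to DAC+SB within a line were counted at a ratio of at least 2 or at most 0.5 where the higher library held at least 100 counts. In H1299 all 200 genes had enough counts. There 28 were higher with DAC+SB and 6 lower, against 18.3% higher and 7.34% lower among all 14610 genes. At this minimum the share that was higher, 14%, was near the background, and the median log2 ratio was 0.00 against -0.07 over all genes. That relation depended on the minimum count. With 500 counts required, 27 of 187 were higher against 8.59% of all genes, and with 20 counts 28 of 200 against 28.4%. At a 4-fold ratio 8 were higher and 1 lower, against 11% and 0.349% of all genes. In HCT116, 188 genes had enough counts. Of these 50 were higher (26.6%) and 12 lower (6.38%), against 16.2% and 20% among all 13539 genes, and the median log2 ratio was 0.26 against -0.23. At 4-fold 25 were higher and 1 lower, against 9.63% and 3.69% of all genes. The 12 genes without enough counts included 11 with under 20 counts in HCT116 DMSO. Of the 50 genes higher in HCT116, 17 were at 0 with DMSO, 4 more were under 20 counts, and 29 had 20 or more. With 20 or more counts in HCT116 DMSO required of every gene, a minimum chosen after the data were seen, 29 of 167 were higher (17.4%) and 12 lower (7.19%). Under the same minimum 11.1% of all 12761 genes were higher and 21.2% lower, and the median log2 ratio was 0.13 against -0.30. Features without a number alone gave 35 higher and 18 lower of 179 in HCT116, against 10.2% and 25.7% of all genes under that setting, and the median log2 ratio fell to -0.01 against -0.45 over all genes.

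Most genes with the highest ratios in H1299 were KRAB zinc finger genes of chromosome 19. ZNF503, which has no KRAB pattern and lies on chromosome 10, had the highest ratio at 11 and 162 counts (log2 ratio 3.93, 3.05 to 4.96), on few counts. ZNF559 had 445, 3756, 201 and 489 counts, or 6.90, 60.2, 3.21 and 12.6 CPM, with log2 ratios of 3.12 in H1299 and 1.97 in HCT116. With the counts of the joined name it shares with its readthrough neighbour ZNF177, these became 2.41 and 1.22. ZNF582, a methylation marker in cervical screening, had 533, 4428, 4 and 77 counts, with a log2 ratio of 3.10 (2.97 to 3.23) in H1299. Features without a number alone gave ZNF582 a log2 ratio of 2.12 there. ZNF420 (chr19:37007857-37130314), also called Apak and known to restrain p53, had 895, 5033, 0 and 179 counts, 5.81-fold higher in H1299 (5.41 to 6.25) and at least 51.5-fold higher in HCT116. ZNF699 had 1063, 5376, 215 and 518 counts, with log2 ratios of 2.39 and 1.95. Counted without numbered features that only 1 library of the line lists, the H1299 value of ZNF699 was 1.70. ZNF345 had 820, 3732, 0 and 86 counts, and a log2 ratio of 2.23 in H1299. Of these, ZNF559, ZNF420 and ZNF699 were also at least 2-fold higher in HCT116, ZNF582 and ZNF345 had fewer than 100 counts there, and ZNF503 was below 2-fold (1797 and 1810 counts, log2 ratio 0.70 after scaling to library size).

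The genes that were lower with DAC+SB lay mostly outside chromosome 19. ZNF367, first described in erythroid cells, was the lowest in both lines with 1280, 260, 471 and 67 counts, giving log2 ratios of -2.25 (-2.45 to -2.06) and -2.13 (-2.52 to -1.76). ZNF689 had 1920, 734, 750 and 162 counts, with log2 ratios of -1.34 and -1.52. ZNF282, which binds the HTLV-1 long terminal repeat, had 1302, 590, 992 and 272 counts, with log2 ratios of -1.09 and -1.18. ZNF76, a relative of the promoter activator ZNF143, had 2557, 1166, 1177 and 201 counts, with log2 ratios of -1.09 and -1.86. These 4 were at least 2-fold lower in both lines, of 188 genes with enough counts in both. Among all genes 657 of 12644 were lower in both. ZNF629 (log2 ratio -1.46) and ZNF217 (-1.02), an oncogene amplified in breast cancer, were also lower in H1299, and ZNF217 was above the limit of 0.5 when only features without a number were counted (log2 ratio -0.90). ZNF202, a repressor of lipid metabolism genes, and ZNF337 had the next lowest ratios in H1299 (-0.96 and -0.89), short of 2-fold, and with features without a number alone both passed it (-1.42 for ZNF202, and a ratio of 0.499 for ZNF337). In HCT116, ZNF652, a repressor that binds CBFA2T3, had 1284, 949, 2027 and 322 counts and a log2 ratio of -1.97 (-2.14 to -1.80). ZNF827, which recruits the NuRD complex to telomeres, was lower as well (log2 ratio -1.71), as were ZNF609 (-1.29), ZNF839 (-1.28) and ZNF644 (-1.21), a partner of the G9a methyltransferase. Without numbered features listed in 1 library of the line only, ZNF644 was at -0.83.

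Ratios in the 2 lines ranked alike, with a Spearman correlation of 0.640 over the 188 genes that had enough counts in both, and of 0.620 over the 167 of them with 20 or more counts in HCT116 DMSO. Genes share libraries and depth, so this is a description. The 16 genes higher in both lines made up 57.1% of those higher in H1299 and 32% of those higher in HCT116. They were ZNF10, ZNF112, ZNF230, ZNF260, ZNF283, ZNF420, ZNF490, ZNF493, ZNF529, ZNF559, ZNF567, ZNF568, ZNF607, ZNF699, ZNF778 and ZNF891. No gene was at least 2-fold higher in one line and at least 2-fold lower in the other. Of the 28 genes higher in H1299, 20 had enough counts in HCT116, and the 16 were 80% of these. Of the 16, ZNF10, ZNF260, ZNF420, ZNF529, ZNF567 and ZNF891 were at 0 in HCT116 DMSO, so their call there follows from that 0. ZNF493 and ZNF568 had under 20 counts there. Such genes entered the rank mainly through their H1299 counts, so the 80% is a description. Over all 12644 genes with enough counts in both lines, 1049 were higher in both (8.30%, against 8.51% of the 188), which was 57.3% of those higher in H1299 and 57.9% of those higher in HCT116, and 116 (0.917%) went in opposite directions. The share higher in both lines was thus near that of all genes. With features without a number alone, 13 of the 16 still had ratios of at least 2 in both lines, and 9 also had 100 counts in both. ZNF778 then fell below 2-fold in H1299 (log2 ratio 0.79), and ZNF283 (0.50) and ZNF230 (0.79) did so in HCT116. ZNF112 had 6.32, 14.9, 4.58 and 19.9 CPM and was thus higher in both lines without having been silent in either. ZNF778 had 27.0, 76.2, 19.5 and 84.7 CPM over all its features.

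**Figure D4:**
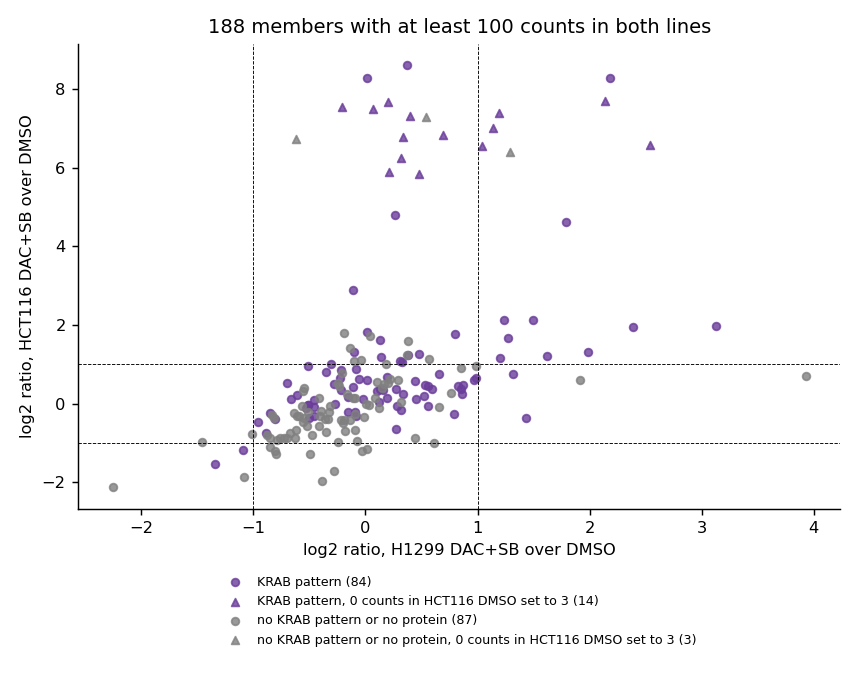
The log2 ratio of DAC+SB over DMSO in HCT116 (vertical axis) against that in H1299 (horizontal axis) for the 188 genes with at least 100 counts in both lines, with purple for a KRAB pattern, grey for none, triangles for 0 counts in HCT116 DMSO set to 3, and dashed lines at 2-fold. The 16 genes in the upper right field were higher in both lines, the 4 in the lower left field were lower in both, and the fields for opposite directions are empty.

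Ratios in the 2 lines differed at genes silent or nearly silent in untreated HCT116, among them ZNF880, ZNF850, ZNF701, ZNF677 and ZNF266. The log2 ratio in H1299 minus that in HCT116 was -8.26 for ZNF880 and -8.24 for ZNF850. Each rests on 1 count in HCT116 DMSO, too few for an interval of the difference, and the genes at 0 have no such point value. In the other direction the difference was 3.23 for ZNF503 (2.35 to 4.12), 1.79 for ZNF383, 1.61 for ZNF714, 1.58 for ZNF652 and 1.43 for ZNF827. ZNF383 had 610, 1590, 276 and 134 counts and ZNF714 1995, 2951, 1854 and 578 counts, so both had ratios above 1 in H1299 (2.69 and 1.53) and below 1 in HCT116 (0.781 and 0.502). With features without a number alone, ZNF714 had 927 and 2088 counts in H1299, a ratio of 2.33 that passes 2-fold. ZNF503 was low in untreated H1299 and high in untreated HCT116, the reverse of the silent genes. The 24 silent genes were all expressed in untreated H1299 cells, at 8.45 to 93.7 CPM. With DAC+SB their levels there were 10.4 to 137 CPM. They could enter the 200 only by their counts in the other libraries, mainly those of H1299, so their H1299 ratios are a description, also where they are part of a group below.

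Ratios are given apart for genes with and without the KRAB pattern. The 108 KRAB genes summed to 1623, 2509, 844 and 1280 CPM. In H1299 24 of them were at least 2-fold higher (22.2%, against 18.3% of all genes at the minimum of 100 counts). There 2 were lower (1.85%, against 7.34%), with a median log2 ratio of 0.27. In HCT116 38 were higher (38.8%, against 16.2%) and 2 lower (2.04%, against 20%) of 98, with a median of 0.60. Among the 108 were 19 of the genes at 0 in HCT116 DMSO, and of the 38 calls 14 were at 0 there, 4 had under 20 counts and 20 had more. The 90 genes without the pattern summed to 2857, 2405, 2324 and 2080 CPM. In H1299 4 of them were higher (4.44%) and 4 lower (4.44%), with a median of -0.23, and in HCT116 11 were higher (12.4%) and 10 lower (11.2%) of 89, with a median of -0.30. The summed level of KRAB genes was thus higher with DAC+SB in both lines, and that of the others was lower. Requiring 17 of 20 positions left 103 KRAB genes with 24 and 38 higher, and requiring 11 gave 111 with 24 and 40 higher. Genes grouped by fingers share members with the KRAB split, and differences between these groups were not tested. Of 99 genes with 10 or more fingers, 17 were higher in H1299 (17.2%) and 35 of 92 in HCT116 (38.0%). Of 62 with 5 to 9 fingers, 10 were higher in H1299 (16.1%) and 10 of 58 in HCT116 (17.2%). Of 37 with up to 4 fingers, 1 was higher in H1299 (2.70%) and 4 in HCT116 (10.8%). In H1299 the first 2 groups were near each other and near the 18.3% of all genes at the minimum of 100 counts. In HCT116 the share of all genes was 16.2%. There 17 of the 99, 5 of the 62 and 0 of the 37 were at 0 with DMSO, and calls of such genes follow from that 0.

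On chromosome 19, 23 of 89 genes were at least 2-fold higher in H1299 (25.8%) and 0 lower, and 33 were higher (42.3%) and 2 lower of 78 in HCT116. Coding genes of chromosome 19 without a zinc finger name had 174 higher (24.1%) and 43 lower of 723 in H1299 (median log2 ratio 0.18), and 127 higher (17.6%) and 147 lower of 720 in HCT116 (median -0.22). The run of 19 genes around ZNF420, described next, held 15 of the 23 calls in H1299, and the 70 genes of the chromosome outside it had 8 higher (11.4%). Of the 33 calls in HCT116, 14 were genes at 0 with DMSO, whose call follows from that 0, 4 had under 20 counts and 15 had more. Of the 111 on other chromosomes, H1299 had 5 higher (4.50%) and 6 lower, and HCT116 had 17 higher (15.5%) and 10 lower (9.09%) of 110. Among the 39 KRAB genes on other chromosomes, 3 were higher and 2 lower in treated H1299 cells, against 10 and 2 of 38 in HCT116. The shares of all genes were 18.3% higher and 7.34% lower in H1299, and 16.2% and 20% in HCT116.

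Neighbouring genes are described as runs, a run being at least 4 consecutive members less than 500 kb apart. The longest run, chr19:36182060-37817300, held 19 members: ZNF565, ZNF146, ZNF566, ZNF260, ZNF529, ZNF382, ZNF567, ZNF850, ZNF790, ZNF345, ZNF829, ZNF568, ZNF420, ZNF383, ZNF569, ZNF570, ZNF793, ZNF607 and ZNF573. In H1299 15 of the 19 were at least 2-fold higher with DAC+SB and 0 lower (median log2 ratio 1.24), where 18.3% and 7.34% of all genes were. Most of the 19 entered the 200 mainly through their H1299 counts, so this is a description and was not set against the other members. The summed level of the run was 365, 865, 88.4 and 98.7 CPM. In HCT116 DMSO 10 of the 19 were at 0 and 13 were under 20 counts. With DAC+SB 8 were higher and 1 lower of the 12 with enough counts, where 16.2% and 20% of all genes were. Of these calls, those of ZNF260, ZNF529, ZNF567, ZNF420 and ZNF569 follow from their 0 with DMSO. Those of ZNF850 and ZNF568 rest on 1 count there, so the 8 are a description. This run is shown because of its values, which the rule for runs did not use. Other zinc finger genes inside it, which were not among the 200, had 7 of 9 higher in H1299 (median 1.27). The single coding gene there without a zinc finger name had log2 ratios of 0.82 and -0.10. It was set apart by its name alone, and its protein was not searched for fingers.

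Neighbours in this run could differ. ZNF146 (chr19:36214602-36238774) had 4368, 4257, 4672 and 1307 counts, with log2 ratios of 0.01 and -1.15, while ZNF566 next to it had 1573, 3785, 177 and 186 counts, with 1.31 and 0.76. ZNF260 had 1946, 4599, 0 and 156 counts, ZNF829 had 1093, 2997, 0 and 98, and ZNF607 had 998, 3818, 125 and 192. ZNF573, at the end of the run, had 617, 1622, 91 and 70 counts, with log2 ratios of 1.44 and 0.31 (-0.16 to 0.77). Near-identical finger sequences can let reads match several genes of such a cluster, and the sources used here do not say how the authors treated them.

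**Figure D5:**
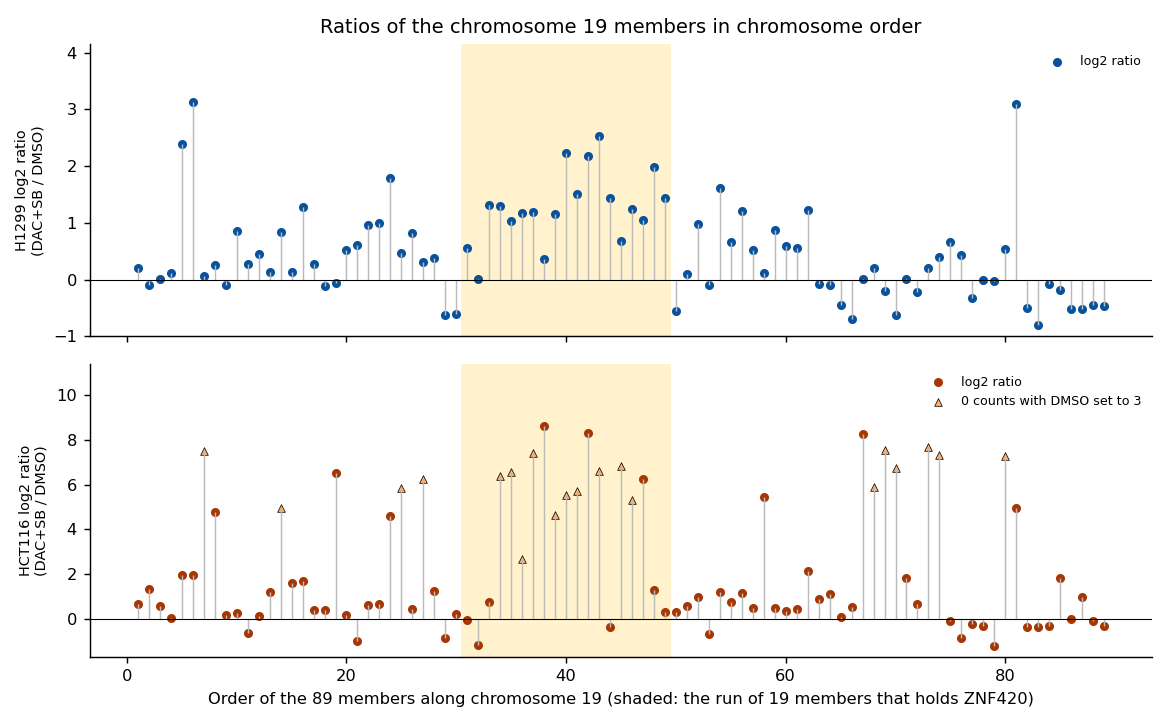
The log2 ratio of DAC+SB over DMSO (vertical axes) for the 89 chromosome 19 genes in their order along the chromosome (horizontal axis), H1299 above and HCT116 below, with triangles for 0 counts with DMSO set to 3 and shading over the run of 19 that holds ZNF420. In the shaded run 15 of 19 genes lie above 1 in H1299, and 10 of 19 are triangles in HCT116.

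Of the 15 runs, 8 had no gene at 0 in HCT116 DMSO. A pair of the other 7 is described, chosen after its values were seen. All 7 held silent genes, whose calls in HCT116 follow from their 0. Over the 7 runs, 31 of 56 genes with enough counts were higher with DAC+SB in HCT116 and 22 of 66 in H1299. Of these 22, 15 lay in the run around ZNF420. Over the 8 runs without a gene at 0, 8 of 45 were higher in HCT116 and 3 of 46 in H1299. The runs were split by their HCT116 DMSO counts, so these counts are a description. Of all genes, 16.2% were higher in HCT116 and 18.3% in H1299. The run chr19:52269571-53580269 (ZNF766, ZNF480, ZNF880, ZNF528, ZNF701, ZNF83, ZNF611, ZNF160, ZNF677 and ZNF331) had 5 of 10 genes at 0 in HCT116 DMSO and 7 of 10 higher with DAC+SB, but 0 higher in H1299 (median log2 ratio -0.10). There ZNF480, ZNF766 and ZNF160 were expressed in both untreated lines (13, 12.2 and 16.7 CPM in H1299, 29.6, 15.5 and 18.0 CPM in HCT116). At the end of chromosome 12, the run chr12:132986365-133214831 (ZNF26, ZNF84, ZNF140, ZNF891, ZNF10 and ZNF268) had 3 of 6 genes at 0 in HCT116 DMSO and 5 of 6 higher with DAC+SB, with 2 higher in H1299. ZNF84, which had 650 counts in HCT116 DMSO and 575 with DAC+SB, was the gene of that run below 2-fold (log2 ratio 0.51).

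Of 12 ZNF genes known for methylated promoters in tumours, 5 were among the 200, namely ZNF331, ZNF382, ZNF529, ZNF582 and ZNF677. These genes were listed because they are methylated in tumours, and with earlier results of these data known. Over the whole list 8 of 12 were at 0 in HCT116 DMSO, as were 24 of the 200, 81 of the other 274 ZNF genes and 12991 of the 40877 genes in the table. ZNF331, an imprinted gene, had 701, 893, 0 and 296 counts, or 10.9, 14.3, 0 and 7.60 CPM. ZNF529 had 1963, 3906, 0 and 175 counts and was 2.06-fold higher in H1299. Its log2 ratio there, 1.04, went down to 0.988 over the alternatives, short of 2-fold. ZNF382 had 545, 1191, 0 and 12 counts, the fewest of the 24 in treated HCT116 cells. Of 12 ZNF genes known to bind or silence transposable elements, 4 were among the 200. ZNF91, which silences SVA elements, had 879, 1108, 175 and 256 counts, with log2 ratios of 0.38 and 1.24, the latter 0.91 with features without a number alone. ZNF611 had 845, 823, 248 and 543 counts, with 0.01 and 1.82, and ZNF141 had 1011, 775, 0 and 78. Only ZNF382 of these 4 was at least 2-fold higher in H1299.

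Of a list of 29 genes with described roles in transcription, RNA, mitosis or translation, 23 were among the 200, and few of them passed 2-fold, although their medians lay below 0. In H1299 0 were at least 2-fold higher and 1 (ZNF217) was lower (4.35%, against 18.3% and 7.34% of all genes), with a median log2 ratio of -0.51 against -0.07. In HCT116 1 was higher (4.35%) and 3 (ZNF146, ZNF462 and ZNF644) were lower of 23, against 16.2% and 20% of all genes, with a median of -0.41 against -0.23. The log2 ratio of ZNF462, -1.09, rose to -0.951 over the alternatives, short of 2-fold. The gene that was higher was ZNF622, a factor of late ribosome assembly, with 23.0, 23.7, 23.1 and 75.5 CPM. Its log2 ratios were 0.04 (-0.06 to 0.15) and 1.71 (1.62 to 1.80). ZNF598, the ubiquitin ligase of collided ribosomes, had 32.2, 20.7, 22.1 and 18.6 CPM. ZNF143 had 11.7, 13.7, 11.8 and 18.4 CPM, and ZNF281, a factor of stem cells, had 23.7, 24.3, 31.1 and 30.3 CPM.

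The partners through which KRAB proteins silence chromatin were expressed in all 4 libraries, apart from ZFP57. Of 18 co-repressor and heterochromatin genes, 1 was at least 2-fold higher in H1299 and 4 were lower, and 1 was higher and 5 lower in HCT116. The shares that were lower, 22.2% and 27.8%, compare with 7.34% and 20% of all genes, and on so few genes the HCT116 share is near the background. TRIM28, the KRAB co-repressor, had 92.3, 61.5, 202 and 116 CPM, lower with DAC+SB in both lines by less than 2-fold. SETDB1 had 16.5, 12.6, 16.9 and 9.27 CPM. CBX5, which codes for the heterochromatin protein HP1 alpha, had 193, 84.9, 83.3 and 41.4 CPM, with log2 ratios of -1.18 and -1.01. UHRF1, which guides DNMT1 to replicated DNA, had 76.5, 31.5, 124 and 28.3 CPM, and DNMT1 itself 229, 108, 201 and 131 CPM. ZFP57, a KRAB protein that protects imprinted methylation, had 0, 217, 0 and 157 counts.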

How the data were processed

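Both tables the authors deposited, for genes and for transposable elements, hold counts as whole numbers, with a feature, a cell and its count in each row. Per the submitters' processing notes, CASAVA, STAR and the builds GRCh38 and hg38 were used, with no role given. The sources used here do not say whether the counts are of unique molecular identifiers. Cells were assigned to libraries by the library name in the cell name, and all 15289 were kept. No doublet caller was run.

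Features that name 1 gene were summed over "name" and "name|number" features. Numbered features held 28.4% (H1299 DMSO) to 47.7% (HCT116 DAC+SB) of the counts of the 200 genes. Names that join several genes were kept apart. Counts were divided by the library's gene and transposable element total (38927267 to 64524196). Ratios have exact conditional binomial intervals, levels exact Poisson and shares of cells exact Clopper-Pearson intervals (95%), for counting error only. A count of 0 was set to 3, also in medians. Bounds on folds used features without a number, and leave out counting error. Each line had 1 library per treatment, so no p-value was computed. Python 3.11.15, pandas 2.3.3, scipy 1.17.1 and edgeR 4.0.16 (for TMM factors) were used, and ratios and counts past thresholds were tested on simulated data.

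The genes, gene lists and rules were chosen with earlier results of these data known. The text names the 10 genes with most counts, the 8 highest and 8 lowest ratios in each line, the 5 largest differences between the lines in each direction (ranked with 3 in place of 0), the genes at the edge of the rank, and list members. Other genes named in the text were chosen after their values were seen. Alternatives changed the denominator, scaling, minimum count, threshold, features, joined names and cells.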

Additional observations from a re-analysis of the deposited data

Results flagged for a closer look

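Names that join several genes were left out of the comparisons, and 4 that contain the name of a ZNF gene had at least 1000 counts in a library and were at least 2-fold higher with DAC+SB in a line. Their counts cannot be divided between the genes they join. The joined name of AC003002.4, TRAPPC2B and ZNF547 had 442 counts in untreated and 1624 in treated HCT116 cells, a log2 ratio of 2.56. The joined name of RP11-15A1.3 and ZNF404 had 406 and 1443 counts in untreated and treated H1299 cells, a log2 ratio of 1.88. That of ZFP30 and ZNF781 had 3290 and 10633 counts there, a log2 ratio of 1.74, with 0 and 16 counts in HCT116. That of ZNF559 and ZNF559-ZNF177 had 522 and 1212 counts in H1299, a log2 ratio of 1.26. These differences were not tested, because each group was 1 library.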

How the results depend on the processing

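Each group had 1 library, so no replicate numbers pair samples and no replicate was left out, and a fit with line as a block, which leaves 1 residual degree of freedom, was not run. Depth limits the 0 counts of HCT116 DMSO, for which the floor was 3 counts in 62639099. Scaling moved the median log2 ratio of all genes in HCT116 from -0.23 to between -0.25 (TMM) and -0.0956 (without mitochondrial and ribosomal protein genes), while 49 to 55 of the 188 ZNF genes were higher and 11 to 13 lower. Of all genes 16.0% to 17.9% were then higher and 16.1% to 20.4% lower. The causes of the following changes were not tested, beyond what each setting itself leaves out.

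The summed log2 ratio of the 200 genes was 0.15 in H1299 and 0.09 in HCT116. It was 0.19 and 0.17 per gene counts alone, 0.21 and 0.23 without mitochondrial and ribosomal protein genes, 0.17 and 0.0735 with TMM scaling, and 0.10 and 0.13 with median-of-ratios scaling. It was 0.13 and 0.0493 with numbered features counted only where both libraries of a line list them, and 0.13 and 0.11 as means over cells. In H1299 it was 0.13 without the 5% of cells with most counts. In HCT116 it was 0.0534 with joined names added and 0.0660 without cells above 25% mitochondrial counts. Counting features without a number only, an alternative chosen after seeing the data, gave 0.0622 in H1299 and -0.14 in HCT116.

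The HCT116 median log2 ratio of 0.26 became 0.39 without mitochondrial and ribosomal protein genes, 0.15 with numbered features listed in both libraries, -0.0121 with features without a number, and -0.0323 at a minimum of 500 counts. At that minimum 18 of 136 genes were at least 2-fold higher (7.96% of all genes), and the median of all genes was -0.39. At a 4-fold threshold 8 genes were higher and 1 lower in H1299, and 25 and 1 in HCT116. Features without a number gave 11 lower genes in H1299. For the untreated lines, a 2-fold threshold gave 72 of 200 genes higher in H1299 and 12 in HCT116, against 20.5% and 15.2% of all genes. Their median log2 ratio of 0.47 became 0.37 without mitochondrial and ribosomal protein genes, 0.34 with TMM scaling and 0.68 with features without a number.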
